A study of Mus musculus with 6 samples.

Results

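The Slc25 genes encode the mitochondrial carrier family, and 45 of its members were measured here in mouse subcutaneous white adipose tissue, the fat under the skin. The members are the rows of the expression table whose symbol is Slc25a followed by a number, without Slc25a1 and Slc25a20, so that 45 of 36144 gene rows were taken. The rule reads symbols alone, and the 2 carriers it leaves out are described with the related genes. Poly-A RNA from 6 libraries was sequenced, 3 titled WT and 3 titled Tumor, with tissue taken 4 to 5 weeks after surgery. By the genotype label the WT libraries come from MSRA WT hosts and the Tumor libraries from MSRA full-body KO hosts, and all 6 carry the treatment label Orthotopic transplant. The design text has pancreatic ductal adenocarcinoma cells transplanted into both kinds of host, whereas the series title sets tumour-bearing mice against controls without a tumour. The titles call the libraries of a group biological replicates, but no label used here gives age, sex or strain or says whether each is 1 animal, so p-values measure the spread between these libraries. Msra itself stood at 51.1, 59.1 and 56.3 TPM in the WT libraries and at 52.9, 40.0 and 26.9 TPM in the libraries labelled knockout, so it was not lost there. A value summed over a whole gene does not show a missing exon, and all directions below follow the titles.

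Values are TPM, which express each gene as its part of the transcript pool after correction for length, so that levels may be set against each other between genes, while read totals of the libraries are unknown. Each library is a mixture of cells. The 10 adipocyte markers summed to 17085, 20337 and 31201 TPM in WT replicates 1, 2 and 3 and to 26180, 18166 and 6790 TPM in Tumor replicates 1, 2 and 3. All 10 were present in every library, with Adipoq (adiponectin) at 721 to 3455 TPM, and the lowest was Lep (leptin), at 18.0 TPM in Tumor replicate 3. The 8 B cell markers summed to 4.47 TPM in WT replicate 3 and 10.5 TPM in Tumor replicate 1, against 757 to 2495 TPM in the other 4, with Cd79a at 0.775 and 1.71 TPM against 235 to 712 TPM and no marker at 0. These same libraries had the highest sums of adipocyte markers and of 6 adipocyte progenitor markers (1351 and 2503 TPM, against 567 to 840 TPM). Those traits therefore cannot be told apart here. The 8 skeletal muscle markers summed to 14.9 and 11.5 TPM in WT replicates 1 and 3, against 612 to 3050 TPM in the other 4, with Acta1 at 0.953 and 2.82 TPM against 135 to 612 TPM and no marker at 0. The 6 brown and beige adipocyte markers summed to 817 to 2167 TPM in the WT libraries and to 223 to 377 TPM in the Tumor libraries, where Elovl3 was listed at 0 in replicate 3. Sample identifiers in the labels run in separate blocks for the groups, so a batch and the group cannot be told apart. In bulk tissue fewer cells of a type and less RNA per cell cannot be told apart.

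Mitochondrial carriers are small proteins of the inner mitochondrial membrane, built from a triplicated fold, and each moves a metabolite, nucleotide, cofactor or ion between cytosol and matrix. They supply oxidative phosphorylation with ADP and phosphate, exchange amino acids and organic acids for the shuttles that carry reducing equivalents, and bring in cofactors that matrix enzymes need. In white fat they also link mitochondrial carbon to fatty acid synthesis in the cytosol.

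Most of the family was expressed in this fat depot. Of the 45 members 6 averaged at least 100 TPM over the 6 libraries, 13 averaged 20 to 100 TPM, 19 averaged 1 to 20 TPM and 7 averaged below 1 TPM. Their summed level was 2273, 2060 and 2536 TPM in the WT libraries and 2092, 2047 and 1777 TPM in the Tumor libraries, and the groups overlapped. The leading 2, the phosphate carrier Slc25a3 and the ADP/ATP carrier Slc25a5, held 34.8% to 43.4% of that sum, and the leading 6 held 64.5% to 70.4%. In every library these 2 took the first 2 ranks. Slc25a10, Slc25a4 and Slc25a39 followed, each within ranks 3 to 6 in all 6 libraries, and neighbours in that order exchanged places between libraries. The plot of levels by member shows a gradual descent after the leading pair.

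**Figure D1:**
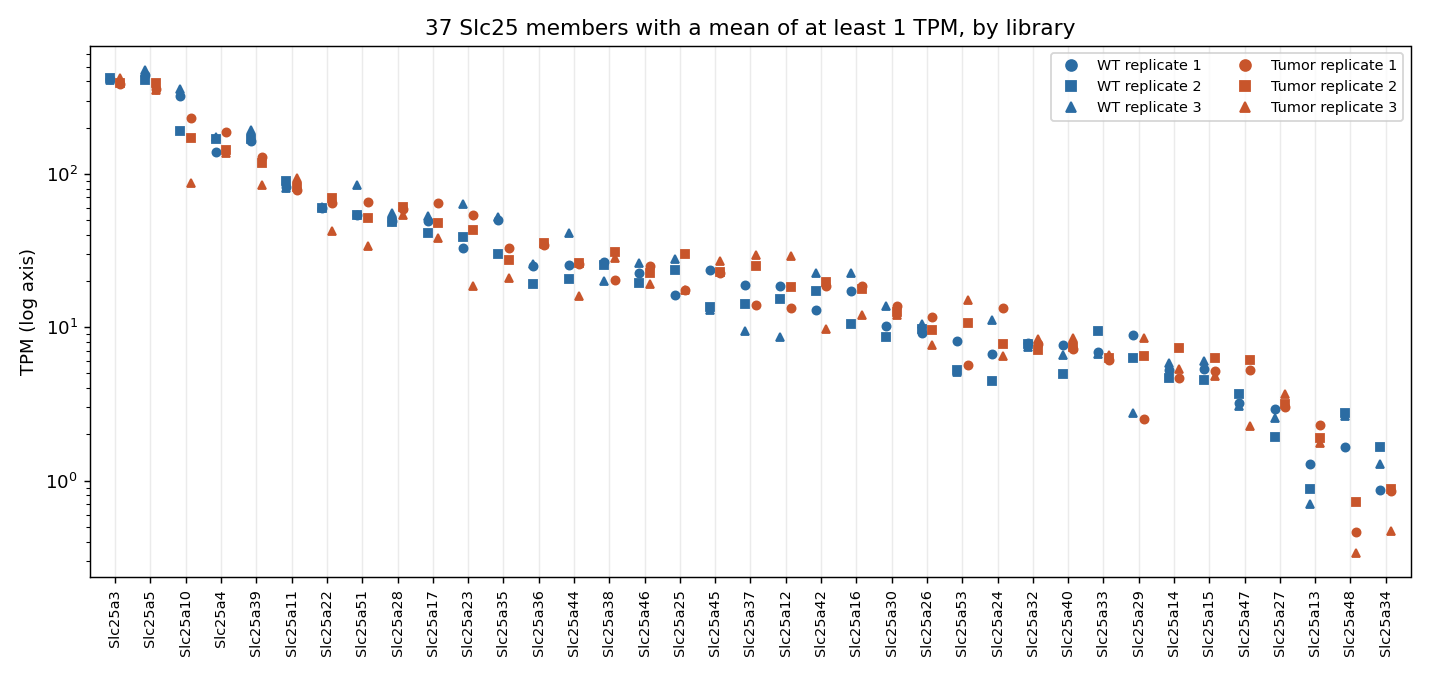
TPM (log axis) of 37 Slc25 members with a mean of at least 1 TPM, 1 such member being left out, ordered by mean, with 1 point per library, WT in blue and Tumor in orange. Slc25a3 and Slc25a5 lead in all 6 libraries, and Slc25a48 and Slc25a13 near the right end have groups that do not overlap.

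A difference between the groups was tested with limma, a linear model with shared variance, on log2(TPM + 1) for 14144 genes, those that reached 1 TPM in 3 or more libraries. Of the 45 members 37 met this minimum. No member passed at an adjusted p below 0.05, as no gene did (0% of all genes tested), and the smallest adjusted p among members was 0.737. Without adjustment 4 members of 37 had p below 0.05 (limma), Slc25a48 and Slc25a39 with lower and Slc25a36 and Slc25a13 with higher values in the Tumor libraries, against 5.45% of all genes tested. The median log2 difference, Tumor minus WT, was -0.02 over the 37 members and 0.23 over all genes tested. A negative difference was found for 20 members of 37 (54.1%), against 23.2% of all genes tested. All 3 Tumor libraries lay below all 3 WT libraries for 4 members (Slc25a48, Slc25a39, Slc25a5 and Slc25a33), against 3.24% of all genes, and above them for 3 members (Slc25a36, Slc25a27 and Slc25a13), against 11.8% of all genes. Slc25a48 and Slc25a13 reached 1 TPM in all 3 libraries only in the group where each was higher. Their directions were thus not independent of the minimum level, and both enter these counts.

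These counts depend on how libraries are scaled. With median-ratio or upper-quartile factors 26 members of 37 (70.3%) were negative, against 45.8% and 48.4% of all genes. Median-ratio factors moved the median of all genes to 0.03 and that of the members to -0.23, and upper-quartile factors moved them to 0.01 and -0.25. The members' median minus that of all genes was therefore -0.25 without factors, -0.26 with either set of factors and -0.11 without Tumor replicate 3. With median-ratio factors 9 members were lower in every Tumor library and 2 higher, against 6.87% and 3.52% of all genes, and with upper-quartile factors 8 and 2, against 6.46% and 3.32%. The 4 lower members named above were among them under both sets, as were Slc25a36 and Slc25a13, while Slc25a27 overlapped. Without WT replicate 3 and Tumor replicate 1, the libraries poor in lymphoid transcripts, 7 members were lower and 9 higher in both remaining Tumor libraries, against 7.91% and 40.9% of all genes.

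**Figure D2:**
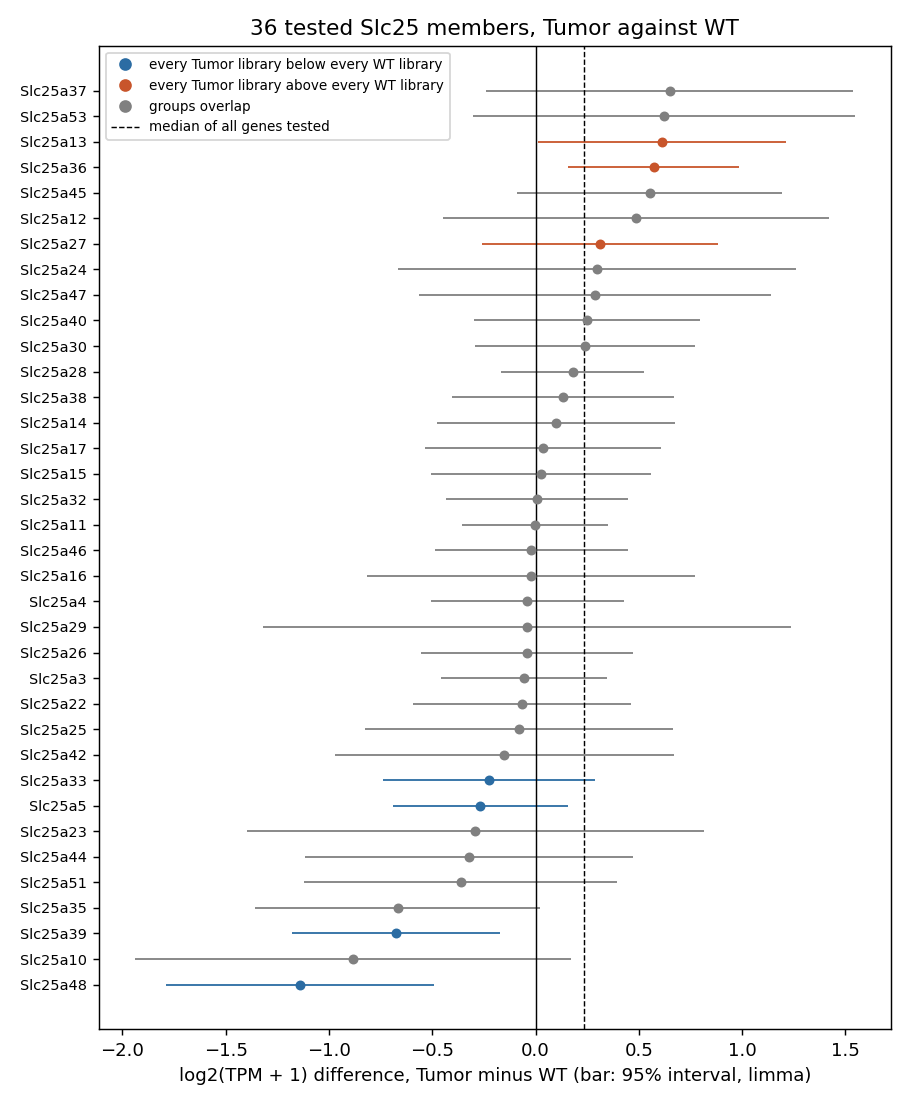
Difference in log2(TPM + 1), Tumor minus WT, of 36 of the 37 tested members, with 95% intervals from limma. Blue and orange mark members whose groups do not overlap, 4 lower and 3 higher, and the dashed line is the median of all 14144 genes tested (0.23).

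The ADP/ATP carriers exchange matrix ATP for cytosolic ADP, and the phosphate carrier brings in the phosphate for ATP synthesis. Slc25a5 (ANT2, the form of dividing and many non-muscle cells; chrX:36795651-36798807) stood at 443, 408 and 474 TPM in the WT libraries and at 355, 393 and 353 TPM in the Tumor libraries. Every Tumor library was below every WT library, by a small margin. The means were 442 ± 32.9 and 367 ± 22.6 TPM (SD, n = 3), for a difference of -0.27 on the log2 scale (SE 0.17, adjusted p = 0.737 with limma), -0.50 and -0.52 with the scaling factors and -0.17 with the muscle covariate. Slc25a4 (ANT1, the form that dominates in muscle) stood at 138, 168 and 173 TPM against 186, 144 and 137 TPM, and the groups overlapped. Muscle markers, in the same order, summed to 14.9, 3050 and 11.5 TPM against 1994, 612 and 2467 TPM, and their part in the level of Slc25a4 was not tested. The level of Slc25a5 was 1.90 to 3.21 times that of Slc25a4, with the lowest ratio in Tumor replicate 1. The third form, Slc25a31, known from germ cells, was at most 0.0670 TPM.

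Slc25a3, the phosphate carrier (chr10:91116574-91124059), was nearly level on TPM. It stood at 415, 418 and 408 TPM in the WT libraries and at 387, 388 and 419 TPM in the Tumor libraries. The highest value was in Tumor replicate 3, the library with the least adipocyte RNA, so the groups overlapped. Its log2 difference of -0.06 had a 95% interval of -0.46 to 0.34 (limma). With median-ratio and upper-quartile factors the difference was -0.29 and -0.31, and Slc25a3 was lower in every Tumor library.

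Carriers of dicarboxylates and keto acids exchange malate, succinate, phosphate and 2-oxoglutarate across the inner membrane. Slc25a10, the dicarboxylate carrier, is known for its high expression in white fat. Positions here are those of GENCODE M21 on GRCm38, and Slc25a10 occupies 120491840 to 120499187 of chromosome 11. It stood at 319, 190 and 357 TPM in the WT libraries and at 232, 171 and 86.5 TPM in the Tumor libraries. Tumor replicate 1 was above WT replicate 2, so the groups overlapped, and Tumor replicate 3 was lowest. The mean was 1.77-fold lower in the Tumor libraries, 163 ± 73.2 against 289 ± 87.5 TPM (SD, n = 3), a log2 difference of -0.88 (SE 0.43, adjusted p = 0.737 with limma). Leaving out Tumor replicate 3 gave -0.49, and leaving out Tumor replicate 1 gave -1.19. Adipocyte markers were also lowest in Tumor replicate 3, and their part in the difference of Slc25a10 was not tested beyond models with a marker list as a covariate. With the adipocyte list the difference was -0.63 (SE 0.21, adjusted p = 0.441 with limma). With the muscle list as a covariate it was -0.43 (SE 0.48, adjusted p = 0.849 with limma). The muscle markers were themselves uneven between the groups (median log2 difference 3.70), though the groups overlapped. They summed to 14.9, 3050 and 11.5 TPM in the WT libraries and to 1994, 612 and 2467 TPM in the Tumor libraries. That model can therefore take up part of the group difference.

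Slc25a11, the 2-oxoglutarate carrier of the malate-aspartate shuttle, stood at 82.4, 89.8 and 80.7 TPM in the WT libraries and at 78.0, 81.8 and 93.5 TPM in the Tumor libraries. Its log2 difference of -0.00078 was the smallest of all tested members, with a 95% interval of -0.35 to 0.35 (limma). With median-ratio factors the same difference was -0.23, so its near-zero value holds on the TPM scale. The level of Slc25a10 was 3.87, 2.12 and 4.43 times that of Slc25a11 in the WT libraries and 2.98, 2.08 and 0.925 times in the Tumor libraries, and Tumor replicate 3 was thus the library in which Slc25a11 exceeded Slc25a10. Slc25a21, which carries 2-oxoadipate, was at most 0.410 TPM.

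The glutathione carriers bring the main cellular thiol antioxidant into the matrix. Slc25a39 (chr11:102402985-102407946) stood at 162, 169 and 191 TPM in the WT libraries and at 129, 117 and 84.2 TPM in the Tumor libraries. The groups did not overlap, and Tumor replicate 3 was again lowest. The mean was 1.58-fold lower in the Tumor libraries, 110 ± 23.2 against 174 ± 15.3 TPM (SD, n = 3), a log2 difference of -0.68 (SE 0.21, 95% interval -1.18 to -0.17, unadjusted p = 0.0166, adjusted p = 0.737 with limma). Leaving out each library in turn gave -0.80 to -0.50, and the other alternatives -0.93 to -0.57. Slc25a40, its close relative, stood at 7.64, 4.91 and 6.61 TPM against 7.17, 7.45 and 8.45 TPM, and the groups overlapped. The level of Slc25a39 was thus 21.2 to 34.4 times that of Slc25a40 in the WT libraries and 9.97 to 18.0 times in the Tumor libraries.

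Pyrimidine nucleotide carriers supply the matrix with the precursors of mitochondrial DNA and RNA, and the family has a pair of them, Slc25a33 and Slc25a36. Slc25a36 (chr9:97074961-97111157) stood at 24.9, 19.2 and 25.8 TPM in the WT libraries and at 34.4, 35.3 and 34.9 TPM in the Tumor libraries. The Tumor values were close together and all above the WT values. The mean was 1.50-fold higher in the Tumor libraries, 34.9 ± 0.449 against 23.3 ± 3.55 TPM (SD, n = 3), a log2 difference of 0.57 (SE 0.17, 95% interval 0.16 to 0.98, unadjusted p = 0.0146, adjusted p = 0.737 with limma). It was 0.33 to 0.35 with the scaling factors and 0.44 to 0.65 when each library was left out. Slc25a33 stood at 6.90, 9.38 and 6.68 TPM against 6.10, 6.29 and 6.60 TPM, the other way, and WT replicate 3 and Tumor replicate 3 nearly met. The level of Slc25a36 was 3.61, 2.05 and 3.86 times that of Slc25a33 in the WT libraries and 5.64, 5.60 and 5.29 times in the Tumor libraries, a ratio that no scaling factor alters.

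The stretches just upstream of Slc25a36 and of Slc25a13, an aspartate/glutamate carrier described next, are shown. An E-box is CACGTG, the palindromic site bound by factors such as Myc and Usf. The pair was picked because both genes stood higher in every Tumor library and both stretches hold an E-box. Both are on the minus strand of GRCm38.p6, from RefSeq, written 5′ to 3′, and end just before the outermost annotated start of the gene. Slc25a36 is chr9:97111158-97111291 and Slc25a13 is chr6:6217174-6217423. Capitals mark the E-box and, in Slc25a36 alone of the pair, a cAMP response element, TGACGTCA, and the 2 motifs do not overlap there.
Slc25a36: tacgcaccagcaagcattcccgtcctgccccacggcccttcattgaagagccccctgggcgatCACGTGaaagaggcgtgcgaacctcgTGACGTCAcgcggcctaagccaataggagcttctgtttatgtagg
Slc25a13: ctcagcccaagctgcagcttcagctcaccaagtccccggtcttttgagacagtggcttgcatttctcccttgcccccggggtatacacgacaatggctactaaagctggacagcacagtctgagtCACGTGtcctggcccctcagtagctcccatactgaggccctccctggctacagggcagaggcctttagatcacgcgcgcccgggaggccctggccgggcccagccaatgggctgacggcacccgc
The E-box begins 187 bases before the RefSeq start of Slc25a36 and 125 bases before that of Slc25a13. For Slc25a36 the last 116 bases before the RefSeq start lie within the GENCODE gene and were left out of the printed stretch. Slc25a33, whose values lay the other way, also holds an E-box, 8 bases before its RefSeq start. The last 10 bases before that start are part of the GENCODE gene. Unlike in the printed pair, the site is therefore not upstream of the outermost annotated start. Over the 250 bases before each RefSeq start, on either strand, CACGTG was found for 7 of 44 starts of members (6 genes of the 34 in that table) and in 6.02% of all 32851 starts. These 6 include Slc25a14 and Slc25a15, whose groups overlapped, and Slc25a31, which was not tested. They do not include Slc25a27, which was also higher in every Tumor library. TGACGTCA was found for 2 of 44 and in 1.55% of all. The motifs and the pair were chosen after the values were seen, and a match is no evidence of binding.

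Aspartate and glutamate carriers feed the malate-aspartate shuttle and glutamate oxidation. Slc25a13 (citrin; chr6:6041218-6217173), known best from liver, stood at 1.29, 0.875 and 0.702 TPM in the WT libraries and at 2.30, 1.88 and 1.75 TPM in the Tumor libraries. All Tumor values were above all WT values, at a low level. The mean was 2.07-fold higher in the Tumor libraries, a log2 difference of 0.61 (SE 0.25, unadjusted p = 0.0467, adjusted p = 0.737 with limma). Its gene passed the minimum level through the Tumor libraries, so its call among tested members was not independent of that direction. Slc25a12 (aralar), the form of muscle and brain, stood at 18.5, 15.3 and 8.60 TPM against 13.4, 18.3 and 29.1 TPM. Its 2 lowest libraries were WT replicate 3 and Tumor replicate 1, the ones poor in lymphoid transcripts and highest in adipocyte markers. Slc25a12 was highest in Tumor replicate 3, with the most B cell and the least adipocyte RNA. Slc25a22, a glutamate carrier, stood at 60.1, 59.4 and 61.1 TPM in the WT libraries and at 64.7, 69.2 and 42.3 TPM in the Tumor libraries. Slc25a18, its relative, was at most 0.176 TPM.

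Cofactor carriers bring matrix enzymes the vitamin-derived compounds they need. Slc25a51, the NAD carrier, stood at 54.0, 53.8 and 85.1 TPM in the WT libraries and at 65.6, 51.8 and 33.7 TPM in the Tumor libraries, highest where adipocyte markers were highest and lowest where they were lowest. Slc25a17, the peroxisomal carrier of coenzyme A and related cofactors, stood at 49.5, 40.8 and 53.4 TPM against 64.3, 47.6 and 37.9 TPM. Slc25a42 (coenzyme A) ranged from 9.78 to 22.5 TPM, Slc25a16 from 10.5 to 22.6 TPM and Slc25a26 (S-adenosylmethionine) from 7.70 to 11.6 TPM. Slc25a32, the folate and FAD carrier, was nearly level, with 7.90, 7.76 and 7.39 TPM against 7.77, 7.05 and 8.39 TPM. Differences of these 6 ran from -0.36 for Slc25a51 to 0.03 for Slc25a17, and none of them separated the groups on TPM. The difference of Slc25a51 was -0.11 without Tumor replicate 3, -0.15 without WT replicate 3, -0.57 without Tumor replicate 1, and -0.59 and -0.61 with the scaling factors. The adipocyte and muscle covariates gave -0.17 and -0.17. With either set of scaling factors Slc25a17 and Slc25a32 were negative too, and Slc25a32 was lower in every Tumor library.

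The mitoferrins carry iron for heme and iron-sulphur clusters. Slc25a28 (mitoferrin 2, the general form) stood at 49.5, 48.3 and 55.6 TPM in the WT libraries and at 58.8, 61.1 and 54.1 TPM in the Tumor libraries. Its difference of 0.18 had a 95% interval of -0.16 to 0.52 (limma) and turned negative with the scaling factors (-0.05 and -0.07). Slc25a37 (mitoferrin 1, the erythroid form) stood at 18.8, 14.1 and 9.46 TPM against 14.0, 25.1 and 29.7 TPM. Its log2 difference was 0.65 (SE 0.36, adjusted p = 0.737 with limma), the most positive of the tested members on log2(TPM + 1) without scaling factors. That rank depended on the pseudocount. With a pseudocount of 0.5 TPM the difference was 0.67 for Slc25a37 and 0.78 for Slc25a13. Without WT replicate 3 the difference of Slc25a37 was 0.41, below that of Slc25a36 (0.65), and it was 0.43 and 0.41 with the scaling factors. Its 2 lowest libraries were WT replicate 3 and Tumor replicate 1. The 6 erythroid markers summed to 1048, 2831 and 1400 TPM in the WT libraries and to 1349, 3733 and 798 TPM in the Tumor libraries, and their part in the level of Slc25a37 was not tested. The exons of Slc25a37 share bases with 2 genes on the other strand, and although all 6 titles carry the words forward strand, no source used here says how strand entered the counting.

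The calcium-regulated ATP-Mg/phosphate carriers set the adenine nucleotide content of the matrix. Slc25a23 stood at 32.6, 38.7 and 63.7 TPM in the WT libraries and at 53.5, 43.2 and 18.6 TPM in the Tumor libraries, and Slc25a24 at 6.65, 4.43 and 11.1 TPM against 13.3, 7.74 and 6.49 TPM. Both were highest in the same 2 libraries, WT replicate 3 and Tumor replicate 1. The difference of Slc25a23, -0.29, was 0.15 without Tumor replicate 3. Slc25a25 ranged from 16.3 to 30.0 TPM with no order by group, and Slc25a41 was listed at 0 in 5 libraries and at 0.219 TPM in Tumor replicate 2.

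None of the 4 other amino acid carriers tested separated the groups over all 6 libraries. Slc25a44, the branched-chain amino acid carrier important in brown fat, stood at 25.4, 20.5 and 41.0 TPM in the WT libraries and at 25.6, 26.2 and 15.9 TPM in the Tumor libraries, highest and lowest in the libraries with the most and the least adipocyte RNA. Slc25a38, the glycine carrier for heme synthesis, ranged from 19.9 to 30.7 TPM. Slc25a29, a carrier of basic amino acids, stood at 8.91, 6.30 and 2.74 TPM against 2.51, 6.45 and 8.53 TPM, a wide range that did not divide the libraries by group. It was lowest in Tumor replicate 1 and WT replicate 3, which were poor in lymphoid transcripts and also highest in adipocyte markers. The part of either was not tested. With this range the group difference of Slc25a29, -0.04, has a wide 95% interval, from -1.32 to 1.24 (limma). Slc25a15, an ornithine carrier, ranged from 4.50 to 6.29 TPM, and Slc25a2, its retrogene, was at most 0.390 TPM.

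The relatives of the uncoupling proteins were low in this tissue. Slc25a30 ranged from 8.57 to 13.7 TPM and Slc25a14 from 4.66 to 7.30 TPM. Slc25a27 (UCP4, best known from brain) stood at 2.91, 1.92 and 2.54 TPM in the WT libraries and at 3.00, 3.17 and 3.65 TPM in the Tumor libraries. The groups did not overlap on TPM, by a narrow margin, and they overlapped once scaling factors were applied. Slc25a46, a member of the outer membrane with a role in mitochondrial shape, ranged from 19.2 to 26.4 TPM and had a difference of -0.02.

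Of the members for which no substrate is named here, Slc25a48 and Slc25a35 differed most. Slc25a48 (chr13:56438355-56474239) stood at 1.65, 2.77 and 2.62 TPM in the WT libraries and at 0.463, 0.725 and 0.339 TPM in the Tumor libraries. No Tumor library reached the lowest WT library. The mean was 4.61-fold lower in the Tumor libraries, 0.509 ± 0.197 against 2.35 ± 0.609 TPM (SD, n = 3), the largest difference of the tested members, a log2 difference of -1.14 (SE 0.27, 95% interval -1.79 to -0.49, unadjusted p = 0.00507, adjusted p = 0.737 with limma). It met the minimum level through the WT libraries alone, so that a lower Tumor level was the direction open to it. With a pseudocount of 0.1 TPM the difference was -2.02. Brown and beige markers were likewise lower in every Tumor library, with Ucp1 at 71.1, 507 and 15.7 TPM against 0.383, 2.21 and 2.27 TPM, and their part in the difference of Slc25a48 was not tested.

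Slc25a35 (chr11:68968131-68974365) stood at 50.0, 30.1 and 52.0 TPM in the WT libraries and at 33.0, 27.2 and 20.9 TPM in the Tumor libraries. Tumor replicate 1 lay above WT replicate 2, so the groups overlapped. The mean was 1.63-fold lower in the Tumor libraries, a log2 difference of -0.67 (SE 0.28, adjusted p = 0.737 with limma). The difference was -0.30 with the muscle list as a covariate, a list that was itself uneven between the groups, with overlap. With either set of scaling factors Slc25a35 was lower in every Tumor library. Of its 3677 exonic bases in GENCODE M21, 1151 are shared with Rangrf on the other strand. Whether the forward strand named in the titles separated reads of the pair was not tested. Rangrf itself was at 12.5, 14.7 and 11.6 TPM against 9.19, 13.1 and 9.75 TPM, below Slc25a35 in every library. Slc25a45 stood at 23.5, 13.4 and 13.0 TPM against 22.7, 22.8 and 26.8 TPM, a log2 difference of 0.55 (SE 0.26, adjusted p = 0.737 with limma), or 0.33 and 0.31 with the scaling factors. Slc25a53 stood at 8.11, 5.23 and 5.06 TPM against 5.69, 10.7 and 15.0 TPM, a log2 difference of 0.62 (SE 0.38). It was 0.33 without Tumor replicate 3, 0.96 without Tumor replicate 1 and 0.40 with upper-quartile factors. Slc25a47, known from liver, ranged from 2.26 to 6.11 TPM. Slc25a34 averaged 1.27 and 0.734 TPM, Slc25a43 averaged 0.774 and 0.847 TPM, and Slc25a54 was listed at 0 in all 6 libraries. These last 3, with Slc25a2, Slc25a18, Slc25a21, Slc25a31 and Slc25a41, are the 8 members that did not meet the minimum for testing.

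Single libraries were often the extreme ones. Tumor replicate 3, with the least adipocyte RNA and the most B cell RNA, was the lowest library for 16 of the 37 tested members (43.2%, against 23.4% of all genes tested) and the highest for 9 (24.3%, against 38.7%). WT replicate 3, with the most adipocyte RNA, was the highest library for 12 (32.4%, against 15.5%) and the lowest for 6 (16.2%, against 32.5%). Highest in WT replicate 3 and lowest in Tumor replicate 3 were 10 members (27.0%, against 10.5%), among them Slc25a10, Slc25a39, Slc25a51, Slc25a44 and Slc25a23. The reverse held for 4 (10.8%, against 24.9%), Slc25a12 and Slc25a37 being 2 of them. WT replicate 3 and Tumor replicate 1 were the 2 highest libraries for 9 members (24.3%, against 22.2% of all genes tested) and the 2 lowest for 5 members (13.5%, against 23.4%). Those 5 were Slc25a11, Slc25a12, Slc25a29, Slc25a37 and Slc25a38. The highest library was within 1.5 times the lowest for 8 of the 37 and within 2 times for 19. The map of members by library shows these columns beside the division between the groups.

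**Figure D3:**
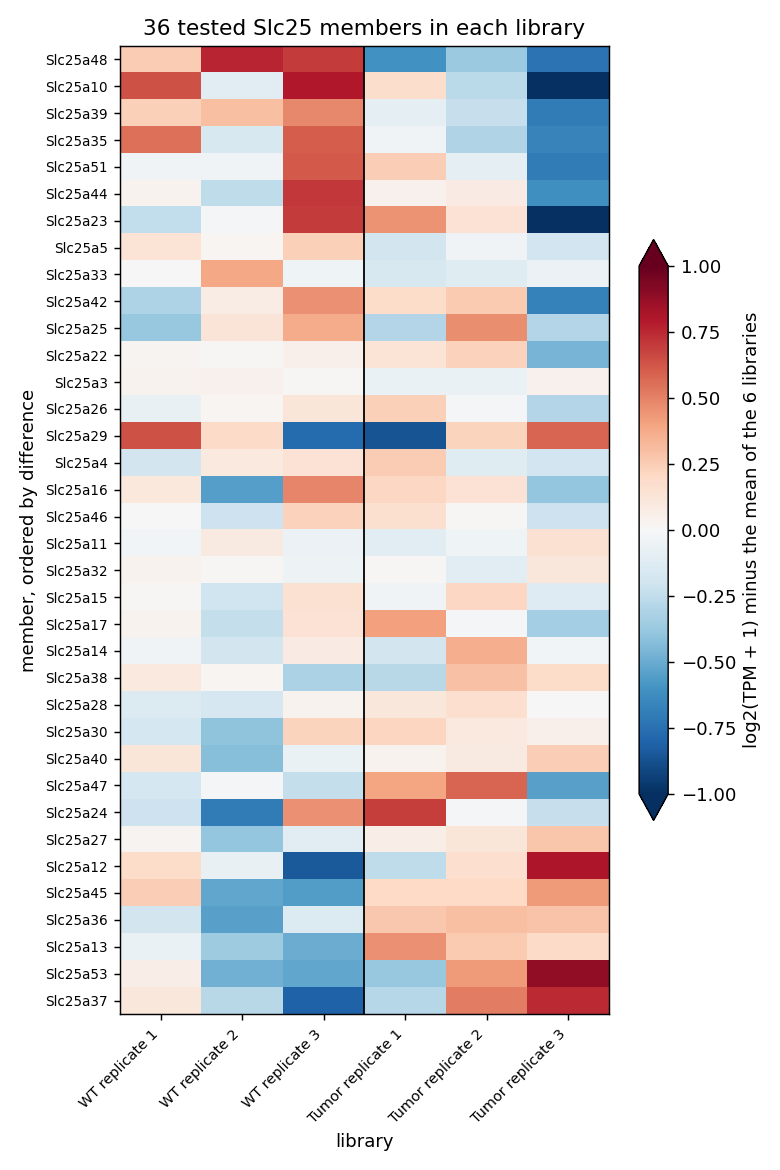
The log2(TPM + 1) of 36 of the 37 tested members in each library, minus the mean of that member over the 6 libraries, in the order of the group difference (blue low, red high, colour limited at 1 either way). Tumor replicate 3 is often lowest and WT replicate 3 often highest, and Slc25a29 divides the libraries across the groups.

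Shares of the summed carrier level do not depend on scaling factors between libraries. The members were sorted into 13 roles, led in every library by the ADP/ATP carriers. ADP/ATP carriers held 25.5% to 28.0% of the sum in the WT libraries and 25.9% to 27.6% in the Tumor libraries, and the phosphate carrier 16.1% to 20.3% against 18.5% to 23.6%. Dicarboxylate and keto acid carriers held 17.7%, 13.6% and 17.3% against 14.8%, 12.3% and 10.1%, with an overlap of the groups. Glutathione carriers held 7.48%, 8.45% and 7.81% against 6.51%, 6.09% and 5.22%, the 1 role whose share was lower in every Tumor library. That share was mostly Slc25a39, with means of 7.63% and 5.54%, while Slc25a40 went the other way, with 0.278% and 0.394%. In 5 roles the share was higher in every Tumor library. Pyrimidine nucleotide carriers held 1.28% to 1.40% in the WT libraries and 1.93% to 2.33% in the Tumor libraries. Within this role the mean share was 1.02% and 1.78% for Slc25a36 and 0.341% and 0.323% for Slc25a33. Iron carriers held 2.57% to 3.03% against 3.48% to 4.71%, and uncoupling-protein relatives 0.736% to 0.870% against 1.02% to 1.18%. The others were the aspartate and glutamate carriers and the outer membrane member, Slc25a46 alone, whose own log2 difference was -0.02. Roles were set for members only, so this count has no share of all genes beside it. Shares sum to a fixed total, so that a lower share of abundant roles raises the others, and no test was made on them.

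**Figure D4:**
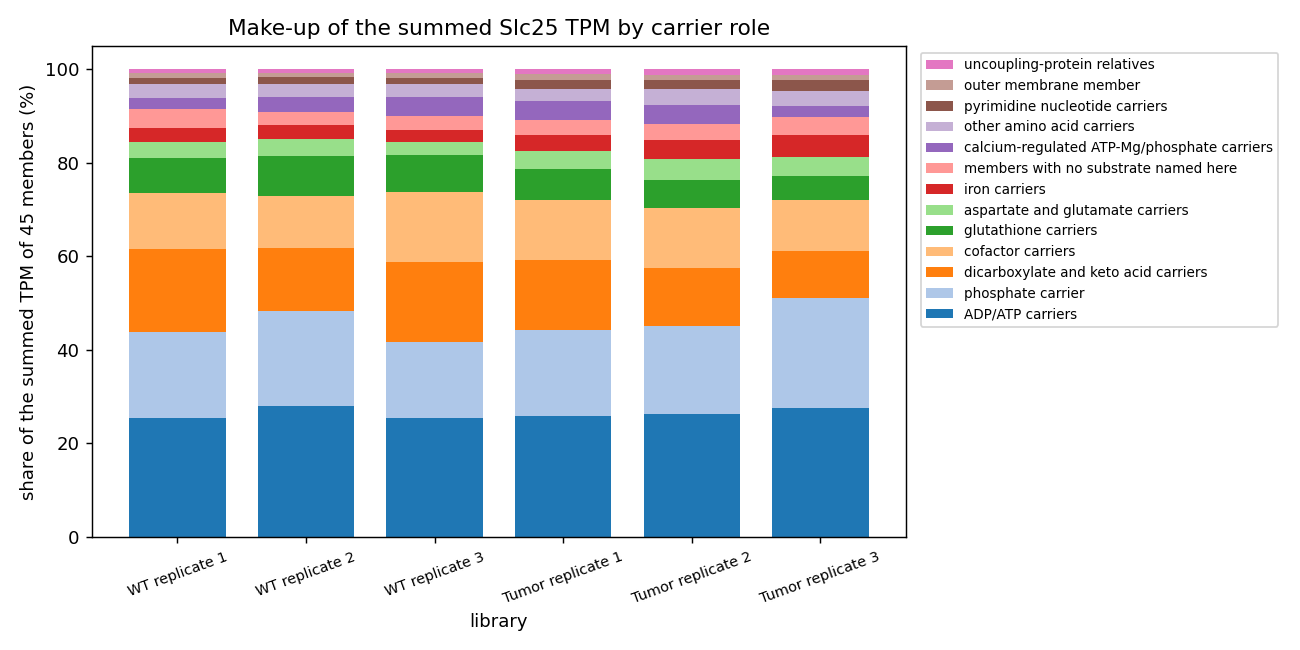
Share of the summed TPM of all 45 members held by each carrier role, with 1 bar per library. Glutathione carriers, mostly Slc25a39, take 7.48% to 8.45% in the WT libraries and 5.22% to 6.51% in the Tumor libraries. The ADP/ATP carriers stay between 25.5% and 28.0%.

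Genes that work with the carriers were counted in 4 further lists. Their differences are those without scaling factors, where 23.2% of all genes tested were negative and the median was 0.23. With median-ratio and upper-quartile factors that median was 0.03 and 0.01. Values of these lists with the factors are not given here, so near-zero differences below hold on the TPM scale. In the family itself, 7 relatives outside the rule were tested, and 6 had a negative difference, with a median of -0.81. Of the 7, 4 were lower in every Tumor library, against 3.24% of all genes tested. Slc25a1, the citrate carrier that exports carbon for fatty acid synthesis, stood at 1010, 710 and 1021 TPM in the WT libraries and at 302, 349 and 206 TPM in the Tumor libraries. It was thus above each of the 45 members in the WT libraries and below both Slc25a3 and Slc25a5 in the Tumor libraries. Slc25a20, the carnitine carrier, averaged 81.0 ± 18.6 TPM against 40.8 ± 9.42 TPM (SD, n = 3), also without overlap. Ucp2, the uncoupling protein found in immune cells, stood at 356, 295 and 140 TPM against 263, 390 and 637 TPM and was the 1 relative with a positive difference, while Ucp3 ranged from 6.76 to 44.7 TPM. Mtch2, an outer membrane insertase, stood at 222, 219 and 264 TPM against 201, 153 and 108 TPM, and Mtch1 overlapped between the groups, with a difference of -0.0030.

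Carriers reach the inner membrane through the TOM pore, the small TIM chaperones and the TIM22 insertase. Of 16 genes of this route 10 had a negative difference, with a median of -0.22, and 6 were lower in every Tumor library, again against 3.24% of all genes, with 0 past the adjusted threshold. These 6 were Tomm6, Tomm40, Timm8b, Timm10, Timm10b and Timm13, mostly small chaperones. Tomm6, a small subunit of the pore, stood at 269, 292 and 282 TPM in the WT libraries and at 206, 219 and 196 TPM in the Tumor libraries. Timm13, a chaperone, stood at 182, 204 and 178 TPM against 166, 148 and 144 TPM. Timm8b and Timm10b were on average 23.4% and 18.9% lower in the Tumor libraries.

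Other mitochondrial channels and transporters gave 9 negative differences of 15 and a median of -0.12. Of the 15, 3 were lower in every Tumor library and 2 higher, against 3.24% and 11.8% of all genes tested. Mpc1 and Mpc2, which form the pyruvate carrier, had the largest negative differences. Mpc1 stood at 747, 685 and 678 TPM against 395, 304 and 228 TPM and Mpc2 at 537, 512 and 474 TPM against 255, 202 and 156 TPM. The outer membrane pores differed little by comparison on TPM without scaling factors. Vdac2 stood at 153, 136 and 144 TPM against 146, 142 and 145 TPM, a difference of 0.0014. Vdac1 stood at 141, 146 and 167 TPM against 147, 128 and 107 TPM. Of the 6 shuttle enzymes that use the carriers' substrates 4 were negative, with a median of -0.59. Lower in every Tumor library were 3 of the 6, against 3.24% of all genes tested. Gpd1, of the glycerol phosphate shuttle, stood at 924, 914 and 1178 TPM against 514, 422 and 177 TPM. Mdh2, the matrix malate dehydrogenase, stood at 356, 432 and 399 TPM against 277, 268 and 216 TPM, its cytosolic counterpart Mdh1 overlapped, and Got2 stood at 34.2, 26.6 and 17.9 TPM against 26.8, 39.3 and 55.2 TPM. None of these genes passed the adjusted threshold (limma, smallest adjusted p = 0.737).

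**Figure D5:**
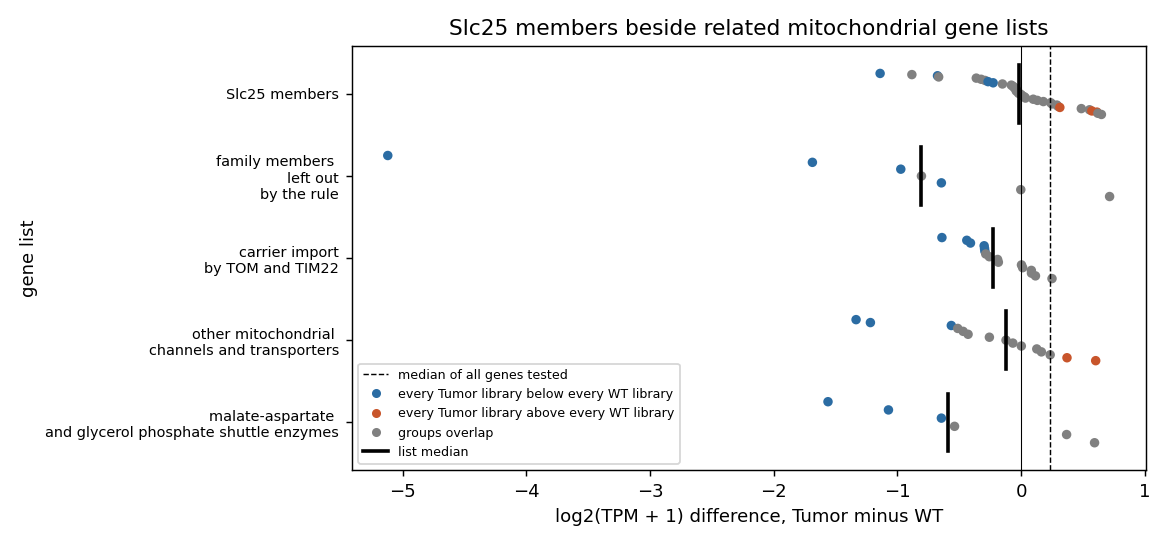
Difference in log2(TPM + 1), Tumor minus WT, of 36 tested Slc25 members and of the tested genes in 4 related lists, with the median of each full list as a bar and the median of all genes tested (0.23) dashed. The members' median is -0.02, that of the import route -0.22 and that of the shuttle enzymes -0.59.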

How the data were processed

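Subcutaneous white adipose RNA from 6 mouse libraries was measured by poly-A RNA sequencing. The authors deposited 1 table of TPM values, named as raw counts. Every column has the same total and its values are not whole, so it was treated as TPM, library totals are unknown, and no count model was run. The submitters' processing notes name GRCm38.p6 and DESeq2. Aligner, quantifier and annotation: not given in the sources used here. Differences in log2(TPM + 1), Tumor minus WT, were fitted with limma 3.58.1 (R 4.3.3; trend and robust moderation) over all 14144 genes with at least 1 TPM in 3 libraries, with Benjamini-Hochberg adjustment and a threshold of 0.05. Fold changes on that scale understate low genes. On simulated data with 200 changed genes at the observed spread, limma recovered 9.4% of 2-fold and 49% of 4-fold changes. With the spread at its lower quartile it recovered 96.8% and 100%. The median residual SD (log2) was 0.26 for the tested members and 0.37 for all genes tested. The alternatives were other pseudocounts, filters, scalings, moderation and marker covariates, a replicate block, and leaving out libraries. The marker lists used as covariates were uneven between the groups too, most for muscle by median log2 difference, though the groups overlapped in each. These models can thus take up part of a group difference. The members and lists were chosen with earlier results of these data known. Named were members with a mean of at least 20 TPM, the 8 largest and 4 smallest differences, the most abundant of each role and of each related list, and some others chosen after their values were seen. All 45 members matched 1 GENCODE M21 gene, and 34 had an upstream sequence in RefSeq (GRCm38.p6). Of the members, 1 is not reported here by name, though it enters the counts, sums and medians.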

Additional observations from a re-analysis of the deposited data

How the results depend on the processing

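No member passed an adjusted p of 0.05 in any of the 20 settings, and 20 of the 37 tested members kept their sign wherever they were tested (9 negative, 11 positive), 4 of these not being tested under the 5 TPM minimum. The members' median, -0.02, was -0.23 with median-ratio and -0.25 with upper-quartile factors, and -0.04 to 0.10 when each library was left out. Members lower in every Tumor library, 4 in all, numbered 9 and 8 with those factors, 7 in the 4 lymphoid-rich libraries, and 4 to 7 with a library left out (7 without WT replicate 2 or without Tumor replicate 1, against 5.08% and 6.74% of all genes). Negative differences numbered 13 to 20 with a library left out, 13 without Tumor replicate 3 (35.1%, against 23.2% of all genes), and 26 with either set of factors. The cause was not tested.

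Several small differences changed sign. With median-ratio and upper-quartile factors Slc25a28 was -0.047 and -0.068, Slc25a38 -0.090 and -0.11, and Slc25a17 -0.19 and -0.21. With the adipocyte covariate Slc25a46 was 0.059, Slc25a25 0.0015, Slc25a4 0.026 and Slc25a22 0.040, and with the B cell covariate Slc25a46 was 0.026 and Slc25a4 0.011. With the muscle covariate Slc25a46 was 0.14, Slc25a44 0.034 and Slc25a22 0.013. In the lymphoid-rich libraries Slc25a46 was 0.0040, Slc25a11 0.024, Slc25a25 0.21 and Slc25a17 -0.079. With each library left out, Slc25a46 ranged from -0.13 to 0.090, Slc25a11 from -0.075 to 0.054, Slc25a23 from -0.59 to 0.15, Slc25a25 from -0.33 to 0.085, Slc25a4 from -0.18 to 0.046, Slc25a22 from -0.20 to 0.15 and Slc25a17 from -0.16 to 0.21.

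Same-numbered libraries of the groups did not deviate together (r = -0.76, 0.20 and -0.84). WT replicate 3 and Tumor replicate 1, both poor in lymphoid transcripts, gave 0.85. Cell content could thus hide a pairing, and this check cannot decide whether the numbers pair libraries. With a replicate block 0 members passed, 1 had an unadjusted p below 0.05, 20 were negative and the median was -0.02.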
